A study of Mus musculus with 12 samples.

Results

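The folate one-carbon enzymes are 9 of the 26921 genes in the deposited count table, found as the rows whose Ensembl identifier carries one of 9 symbols in GENCODE M21. Of these, 5 encode enzymes of the mitochondria (Mthfd2, Mthfd2l, Mthfd1l, Shmt2 and Aldh1l2) and 4 encode enzymes of the cytosol (Mthfd1, Shmt1, Aldh1l1 and Mthfs). The pathway was chosen by the known rise of Mthfd2 in cmGch1 KO against WT libraries, that is, selected on the genotype difference in the same counts. For this reason the genotype differences of the 9 enzymes are given as a description, and the enzymes were not tested as a set. Their calls, standard errors and intervals come from a fit over all genes. Because the choice used the same difference, they are no independent support for it.

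Folate carries single carbon units between metabolic reactions, and the same chain of reactions runs in the mitochondria and in the cytosol on separate enzymes. In the mitochondria serine gives its carbon to tetrahydrofolate through Shmt2, the carbon is oxidised by Mthfd2 or Mthfd2l, and Mthfd1l releases it as formate, which the cytosolic enzyme Mthfd1 takes up for the synthesis of purines, thymidylate and methyl groups. Mthfd2 is best known from embryonic and proliferating cells and is usually low in adult tissue, whereas Mthfd2l is found in adult tissue as well.

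Left ventricular RNA was sequenced at an age of 16 weeks, in 6 libraries from WT mice and 6 from cmGch1 KO mice. Both genotypes carried floxed alleles of Gch1 (Gch1 flox/flox) and were littermates, and cmGch1 KO mice carried in addition 1 copy of a Cre transgene under the cardiomyocyte promoter α-MHC (α-MHC-Cre+/-). Gch1 encodes GTP cyclohydrolase, which starts the synthesis of the cofactor tetrahydrobiopterin. WT mice had no Cre, so loss of Gch1 and the presence of Cre cannot be told apart in these libraries, and other cells of the ventricle kept their Gch1 alleles. Each library stands for 1 mouse, as the methods treat animals as the replicates.

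Totals lay between 19921398 and 37917806 counts per library. Gch1 was at 10.7 ± 0.979 cpm (reads scaled by library size and TMM factors) over the WT libraries and at 5.51 ± 0.859 cpm over the cmGch1 KO libraries (mean ± SD, n = 6 each), without overlap. The libraries labelled cmGch1 KO replicates 2 and 3 stood apart: they held 87.1 and 99.6 cpm of Xist, the transcript of the inactive X chromosome, and no counts of Ddx3y, Eif2s3y, Kdm5d or Uty from the Y chromosome. In the other 10 libraries Xist did not exceed 0.235 cpm, and the sum of these Y-linked genes lay between 168 and 193 cpm. Mitochondrially encoded genes held 14.9% and 16.1% of the counts in these replicates and between 18.3% and 22.9% in the others. Markers of cardiomyocytes summed to between 55406 and 59385 cpm in WT and between 50297 and 55466 cpm in cmGch1 KO libraries, with 0 of 6 markers called at an FDR under 0.05. The 4 macrophage markers summed to between 77.2 and 96.3 cpm in WT and between 96.0 and 117 cpm in cmGch1 KO libraries. Their median log2 fold change was 0.32, again with 0 called. Of the 4 markers of smooth muscle and pericytes, Acta2 alone was called, with 126 ± 14.3 cpm over the WT libraries and 199.7 ± 32.0 cpm over the cmGch1 KO libraries (mean ± SD, n = 6 each). The other 3 were not called and had log2 fold changes of -0.24 for Myh11, -0.40 for Tagln and -0.06 for Rgs5, so that the median of the list was -0.15. The sum of these 4 markers, most of it from Rgs5, ranged from 808 to 898 cpm in WT and from 821 to 953 cpm in cmGch1 KO libraries. No marker was at 0 in every library. The part of sex, of cell composition and of these markers in the values below was not tested, and in bulk tissue fewer cells of a type and less RNA per cell cannot be told apart.

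Of the 9 enzymes, 7 passed the expression filter (cpm over 3 in at least 6 libraries) that left 11225 genes to be tested over the whole table. At an FDR under 0.05, 1 enzyme was called higher in cmGch1 KO hearts (Mthfd2) and 0 were called lower, where 1.12% of all tested genes were called in either direction, 0.677% higher and 0.445% lower. Since Mthfd2 was part of the reason for choosing the pathway, nothing is read from this count. Of the remaining 6 tested enzymes Shmt1 had the log2 fold change farthest from 0.

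**Figure D1:**
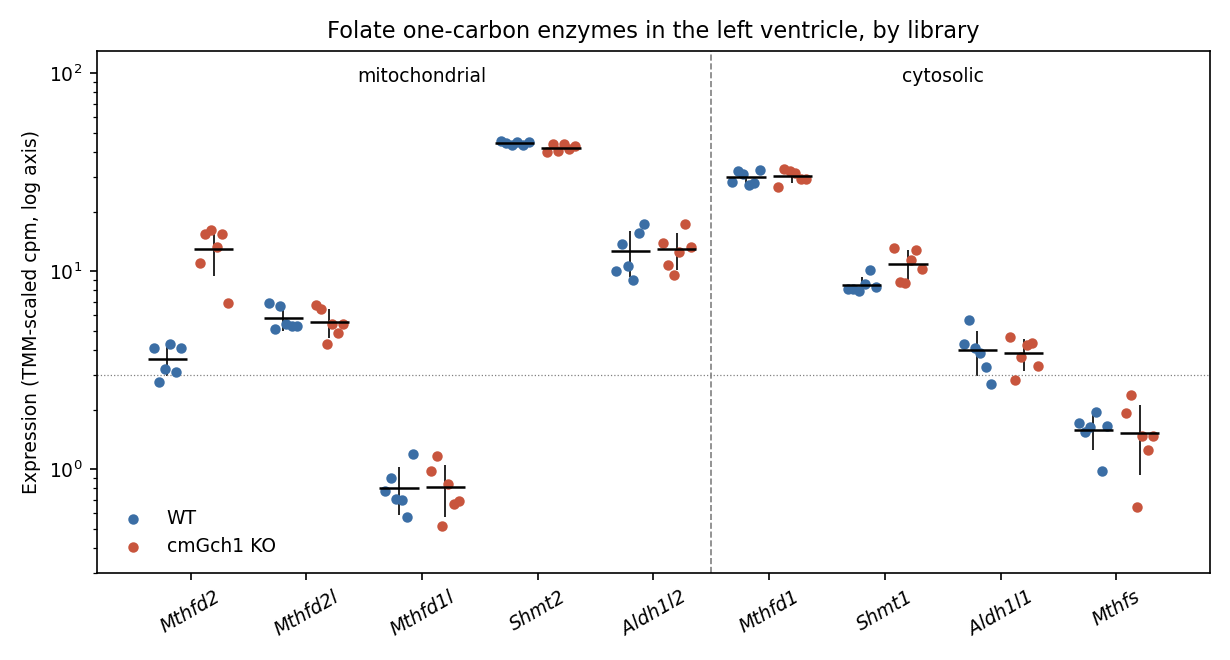
Expression of the 9 folate enzymes in each library (points; TMM-scaled cpm on a log axis), with the mean (bar) and SD (line) of the 6 WT and 6 cmGch1 KO libraries; the dotted line marks the minimum of 3 cpm. The cmGch1 KO libraries of Mthfd2 lie between 6.90 and 16.1 cpm, above all WT libraries, while the genotypes overlap for each of the other 8 enzymes.

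Mthfd2 (ENSMUSG00000005667; chromosome 6, 83305691 to 83325908 on the minus strand, GRCm38) encodes a mitochondrial dehydrogenase and cyclohydrolase that oxidises methylene-tetrahydrofolate. In WT libraries it lay between 2.77 and 4.30 cpm with a median of 3.64 cpm, from 86 to 154 counts per library. In cmGch1 KO libraries it lay between 6.90 and 16.1 cpm with a median of 14.3 cpm, from 249 to 439 counts. The genotypes did not overlap, as in 1.87% of all tested genes, and the lowest cmGch1 KO library, replicate 6, stood well below the other cmGch1 KO libraries, which began at 11.0 cpm. The means were 3.59 ± 0.640 cpm over the WT libraries and 13.0 ± 3.53 cpm over the cmGch1 KO libraries (mean ± SD, n = 6 each). This was a log2 fold change of 1.85 (standard error 0.20, 95% interval 1.43 to 2.27), or 3.61-fold, the fourth highest of the 11225 tested genes. The gene was near the expression minimum in WT, where replicate 2 was under 3 cpm, and it passed the filter with 11 of the 12 libraries. Without cmGch1 KO replicates 2 and 3, the libraries with Xist, the log2 fold change was 1.69 and, with a covariate for sex-linked expression, 1.70. It was 1.18 on the authors' normalised log2 values, which are on another scale. There a count of 0, that of Xist in WT replicate 1, stood at 6.10. The 1.18 is thus not directly comparable with the other log2 fold changes.

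**Figure D2:**
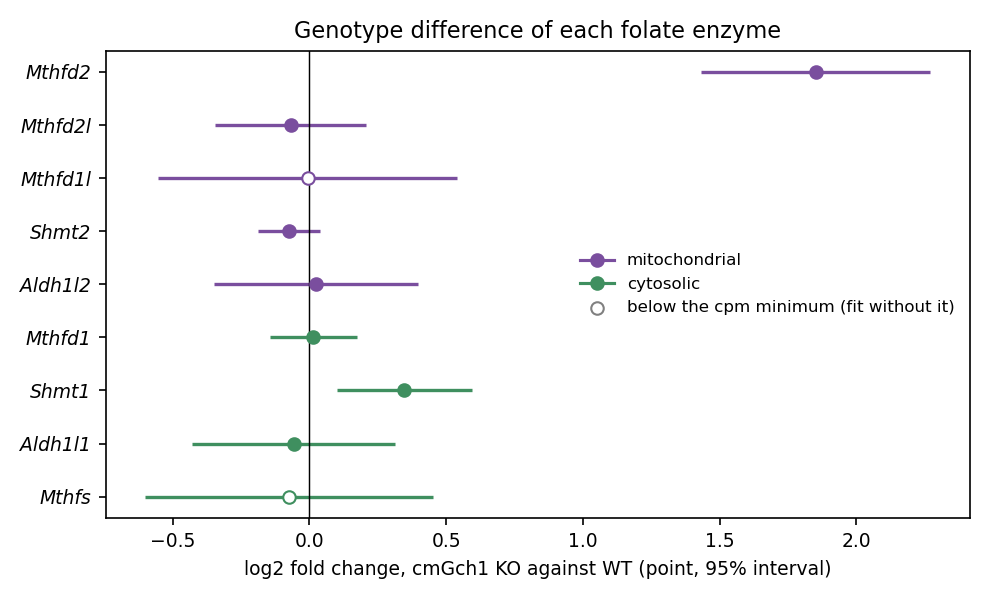
Log2 fold change of each folate enzyme in cmGch1 KO against WT hearts (point) with its 95% interval (line); open symbols are enzymes under the expression minimum, from the fit without that filter. The interval of Mthfd2 runs from 1.43 to 2.27 and that of Shmt1 from 0.10 to 0.59. Those of the other 7 enzymes span 0. The intervals are not adjusted for the number of genes. Of all tested genes, 11.5% had an unadjusted p under 0.05 (edgeR quasi-likelihood test).

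Mthfd2l (ENSMUSG00000029376; chromosome 5, 90931117 to 91021368 on the plus strand) encodes the mitochondrial enzyme most like Mthfd2, and the coding sequences were identical at 71.3% of 991 aligned positions. Its lowest, median and highest values were 5.13, 5.36 and 6.95 cpm in WT and 4.28, 5.42 and 6.74 cpm in cmGch1 KO libraries. The genotypes overlapped, with a log2 fold change of -0.07 (standard error 0.13, 95% interval -0.34 to 0.21).

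The paralogs were set side by side at their promoters because they carry out the same reaction and differed in genotype difference. The windows come from RefSeq (GRCm38.p6), which held a promoter for 8 of the 9 enzymes, and show the bases before the first annotated exon within the 250 bases upstream of the start; capitals mark the letters CCAAT or their reverse complement ATTGG. The Mthfd2 window lies inside the span of the gene in GENCODE M21, because a longer transcript begins farther upstream.
Mthfd2 (chr6:83317607-83317854, minus strand): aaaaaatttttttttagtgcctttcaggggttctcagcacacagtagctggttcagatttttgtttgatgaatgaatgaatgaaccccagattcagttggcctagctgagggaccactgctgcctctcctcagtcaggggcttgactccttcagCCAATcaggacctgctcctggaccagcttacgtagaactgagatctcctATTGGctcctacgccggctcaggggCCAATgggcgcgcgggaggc
Mthfd2l (chr5:90930946-90931116, plus strand): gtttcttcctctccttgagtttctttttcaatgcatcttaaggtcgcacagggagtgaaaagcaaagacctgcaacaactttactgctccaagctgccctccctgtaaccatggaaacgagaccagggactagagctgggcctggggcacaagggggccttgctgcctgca
CCAAT, the letters bound by the factor NF-Y, stood 3 times before the start of Mthfd2, with first bases 96, 47 and 22 bases upstream, and 0 times in the Mthfd2l window. It was counted 2 times for Aldh1l1, 1 time each for Mthfd1 and Shmt1, and 0 times for Mthfd1l, Shmt2 and Mthfs. For Mthfd1 and Shmt1 an annotated exon reached the first base of the window, which left 0 bases before it. All counts were made from 250 bases upstream to 50 bases downstream of the start, a longer stretch than the windows shown. Over 32851 RefSeq promoters counted in the same way, 37.4% held it at least 1 time on either strand and 3.37% at least 3 times. This motif was picked after the sequences had been viewed. Whether it has a part in the genotype difference of Mthfd2 was not tested. The other motifs searched, TGATGNAA (the element read by C/EBP and ATF factors) and CACGTG (the E-box), were in 3.97% and 7.15% of all promoters and in 0 of the 8 enzyme promoters, which says only that these letters are not in these windows.

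The balance between the paralogs was compared within each library as the ratio of cpm per kilobase of exon. The ratio of Mthfd2 to Mthfd2l was 1.19 ± 0.243 (SD, n = 6) in WT, with values from 0.916 to 1.52, and 4.66 ± 1.77 (SD, n = 6) in cmGch1 KO hearts, with values from 2.42 to 7.16. Thus the paralogs were at about the same level per kilobase in WT libraries, and Mthfd2 was the higher in each cmGch1 KO library. Mthfd2 made up 5.69% ± 0.933 of the summed level per kilobase of the 5 mitochondrial enzymes in WT and 18.5% ± 4.54 in cmGch1 KO libraries (mean ± SD, n = 6 each). Among the 3 dehydrogenases of the same step (Mthfd2, Mthfd2l and the cytosolic Mthfd1), its share was 11.96% ± 2.24 in WT and 32.3% ± 6.03 in cmGch1 KO libraries (mean ± SD, n = 6 each).

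**Figure D3:**
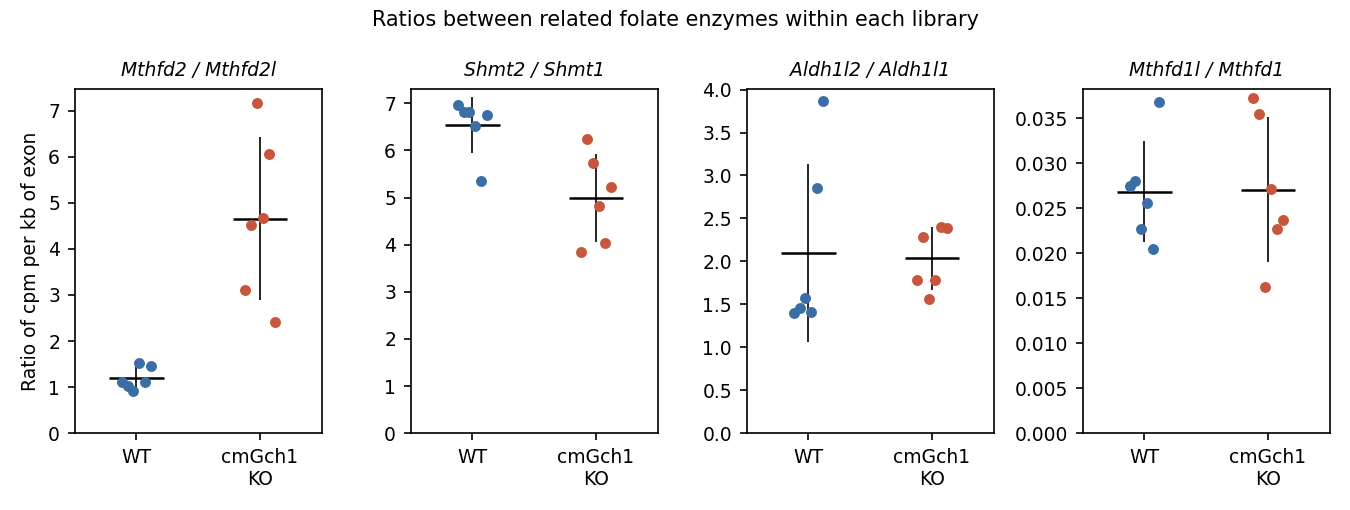
Ratio of cpm per kilobase of exon between related enzymes in each library (points), mitochondrial over cytosolic in the 3 panels to the right and Mthfd2 over Mthfd2l in the first, with mean (bar) and SD (line) of 6 libraries per genotype. The first ratio lies between 0.916 and 1.52 in WT and between 2.42 and 7.16 in cmGch1 KO hearts, and the ratios of the other 3 pairs overlap between the genotypes.

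Shmt2 (ENSMUSG00000025403; chromosome 10, 127517123 to 127522444 on the minus strand) encodes the mitochondrial serine hydroxymethyltransferase, which moves the carbon of serine onto tetrahydrofolate. It spread little in WT, with lowest, median and highest values of 43.3, 44.5 and 45.5 cpm. The cmGch1 KO libraries had 40.3, 42.1 and 44.1 cpm. Of these, 4 lay below all WT libraries and the other two lay among them. The log2 fold change was -0.07 (standard error 0.05, 95% interval -0.19 to 0.04), and it was 0.0023 with scaling by library size alone, which moved the median of all tested genes from -0.01 to 0.07.

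Shmt1 (ENSMUSG00000020534; chromosome 11, 60788104 to 60811718 on the minus strand) encodes the cytosolic form of the same enzyme. WT libraries had 7.93, 8.23 and 10.1 cpm as their lowest, median and highest values, and cmGch1 KO libraries had 8.78, 10.9 and 13.1 cpm. In all, 4 cmGch1 KO libraries lay above all WT libraries, and the pair within the WT range, replicates 2 and 3 at 8.79 and 8.78 cpm, were the libraries with Xist. The log2 fold change was 0.35 (standard error 0.12, 95% interval 0.10 to 0.59) with these libraries and 0.47 without them, and Shmt1 was called at an FDR under 0.05 in 0 of 24 alternative analyses. Since Shmt2 and Shmt1 lay on opposite sides of their WT means, the ratio of Shmt2 to Shmt1 per kilobase was 6.54 ± 0.598 in WT and 4.98 ± 0.938 in cmGch1 KO libraries (mean ± SD, n = 6 each), with overlap. On the opposite strand 4.74% of the exon bases of Shmt1 are shared with Smcr8, and the strand setting of the counting is not given in the sources used here.

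Aldh1l2 (ENSMUSG00000020256; chromosome 10, 83487450 to 83534140 on the minus strand) and Aldh1l1 (ENSMUSG00000030088; chromosome 6, 90486427 to 90600203 on the plus strand) encode the mitochondrial and the cytosolic formyl-tetrahydrofolate dehydrogenase, which oxidises the carbon unit to carbon dioxide. Aldh1l2 spread over 9.08 to 17.4 cpm in WT and 9.56 to 17.3 cpm in cmGch1 KO libraries. The log2 fold change was 0.02 (standard error 0.17, 95% interval -0.35 to 0.40). Aldh1l1 spread over 2.71 to 5.68 cpm in WT and 2.84 to 4.68 cpm in cmGch1 KO libraries, with a log2 fold change of -0.06 (standard error 0.17, 95% interval -0.43 to 0.31). In both genes the cmGch1 KO libraries lay within the WT range. The ratio of Aldh1l2 to Aldh1l1 per kilobase was 2.09 ± 1.04 (SD, n = 6) in WT, where replicates 5 and 6 reached 2.86 and 3.87, and 2.04 ± 0.367 (SD, n = 6) in cmGch1 KO hearts. Exon bases shared with genes on the opposite strand were 14.1% for Aldh1l2 and 11% for Aldh1l1.

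Mthfd1 (ENSMUSG00000021048; chromosome 12, 76255298 to 76319803 on the plus strand) encodes the cytosolic enzyme that joins the dehydrogenase, cyclohydrolase and formate-binding steps in 1 protein. Its lowest, median and highest values were 27.3, 29.7 and 32.4 cpm in WT and 26.5, 30.3 and 32.8 cpm in cmGch1 KO libraries. The log2 fold change was 0.01 (standard error 0.07, 95% interval -0.14 to 0.17), which with that of Shmt2 was among the most precise of the 9. Mthfd1l (ENSMUSG00000040675; chromosome 10, 3973118 to 4167081 on the plus strand) encodes the mitochondrial enzyme that makes formate, the last step before the carbon leaves the organelle. It did not reach the expression minimum in any library, with 0.572 to 1.19 cpm in WT and 0.519 to 1.16 cpm in cmGch1 KO libraries, from 12 to 31 counts. In the fit without the filter its log2 fold change was -0.01 (standard error 0.26, 95% interval -0.55 to 0.54). Per kilobase, Mthfd1l stood at 0.0269 ± 0.00566 of the level of Mthfd1 in WT and 0.0271 ± 0.00804 in cmGch1 KO libraries (mean ± SD, n = 6 each).

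Mthfs (ENSMUSG00000066442; chromosome 9, 89210676 to 89377713 on the plus strand) encodes the cytosolic enzyme that returns formyl-tetrahydrofolate from its storage form to the active pool. It was also under the minimum in every library, with 0.984 to 1.95 cpm in WT and 0.649 to 2.37 cpm in cmGch1 KO libraries, from 15 to 70 counts, and a log2 fold change of -0.07 without the filter (standard error 0.25, 95% interval -0.60 to 0.45). Its value is uncertain, because the coding sequence of Mthfs matched that of the copy Mthfsl at 606 of 609 positions (99.5%), so that reads could be split between them or left out. Mthfsl itself was at 4.80 ± 1.18 cpm over the WT libraries and 4.05 ± 1.0003 cpm over the cmGch1 KO libraries (mean ± SD, n = 6 each), with overlap. The other pairs of paralogs were far apart in sequence: Mthfd1 and Mthfd1l were identical at 68.5% of aligned coding positions, Shmt1 and Shmt2 at 67.3%, and Aldh1l1 and Aldh1l2 at 72.7%.

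The mitochondrial enzymes were then compared with the cytosolic enzymes within each library, as the mean log2 cpm of the 5 mitochondrial enzymes minus that of the 4 cytosolic enzymes. This difference was -0.01 ± 0.18 (SD, n = 6) in WT, from -0.20 to 0.30, and 0.27 ± 0.12 (SD, n = 6) in cmGch1 KO hearts, from 0.15 to 0.42. The cmGch1 KO mean was 0.29 higher, and WT replicate 6 at 0.30 overlapped the cmGch1 KO libraries. It was 0.23 higher with Mthfs left out and 0.32 higher with only the enzymes that passed the expression filter. Without Mthfd2 the same difference was 0.19 ± 0.19 in WT and 0.11 ± 0.07 in cmGch1 KO libraries (mean ± SD, n = 6 each), so that the cmGch1 KO mean was lower, at -0.078 relative to WT. The median log2 fold change was -0.02 over the 4 tested mitochondrial enzymes and 0.01 over the 3 tested cytosolic enzymes, beside -0.01 over all tested genes. The direction of the difference between the compartments thus rested on Mthfd2.

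**Figure D4:**
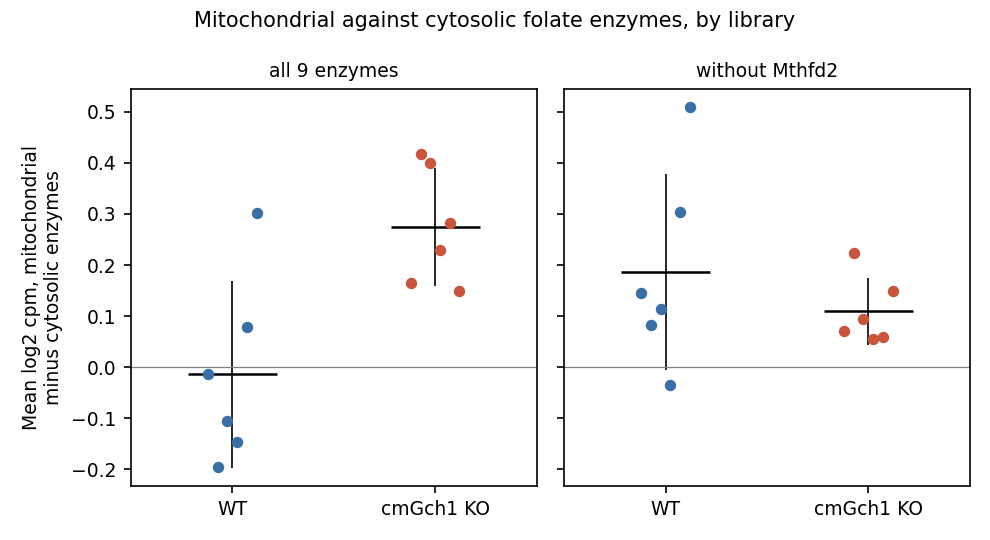
Mean log2 cpm of the mitochondrial minus the cytosolic folate enzymes in each library (points), with all 9 enzymes and without Mthfd2; bars are means and lines SDs of 6 libraries per genotype. With all enzymes the means are -0.01 in WT and 0.27 in cmGch1 KO hearts, and without Mthfd2 they are 0.19 and 0.11.

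As a sum of levels per kilobase, which gives most weight to the most expressed genes, the mitochondrial enzymes came to 18.1 ± 0.543 cpm per kilobase in WT and 20.02 ± 1.06 cpm per kilobase in cmGch1 KO libraries (mean ± SD, n = 6 each). The cytosolic enzymes came to 10.02 ± 0.491 (SD, n = 6) and 10.6 ± 0.364 cpm per kilobase (SD, n = 6). The ratio of the sums was 1.81 ± 0.101 in WT and 1.88 ± 0.0699 in cmGch1 KO libraries (mean ± SD, n = 6 each), and the genotypes overlapped. Shmt2 alone, at 14.3 cpm per kilobase in WT, held most of the mitochondrial sum. It was lower in cmGch1 KO libraries, at 13.6 cpm per kilobase. Mthfd2, the gene behind the choice of the pathway, was at 1.03 in WT and 3.73 in cmGch1 KO libraries. Aldh1l2 was at 1.70 and 1.72, Mthfd2l at 0.871 and 0.832, and Mthfd1l at 0.182 and 0.183. The higher mitochondrial sum thus rested on Mthfd2.

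The order of levels was examined in WT libraries, where the genotype plays no part. Per kilobase of exon, Shmt2 was highest at 14.3 ± 0.284 cpm per kilobase (SD, n = 6), followed by Mthfd1 at 6.73 ± 0.520, Shmt1 at 2.20 ± 0.209, Aldh1l2 at 1.70 ± 0.444 and Mthfd2 at 1.03 ± 0.184. Aldh1l1 followed at 0.883 ± 0.224 and Mthfd2l at 0.871 ± 0.120, and Mthfs at 0.207 ± 0.0423 and Mthfd1l at 0.182 ± 0.0490 were lowest. The place of Mthfs, and each pair with it below, is uncertain, because its reads could be split with its near-identical copy Mthfsl or left out. In WT libraries the mean was 4.80 cpm for Mthfsl and 1.58 cpm for Mthfs. Neighbours in this order were compared within libraries by an exact paired permutation test, two-sided, with Benjamini-Hochberg adjustment over the 8 pairs. For Shmt2 over Mthfd1, Mthfd1 over Shmt1 and Mthfd2l over Mthfs, 6 of 6 libraries had the same order (exact p = 0.03125, the smallest that 6 libraries allow; adjusted p = 0.0833), with mean differences of 1.09, 1.62 and 2.09 on the log2 scale. None of the 8 pairs passed 0.05 after adjustment. The other 5 pairs had exact p between 0.0625 and 1, and the order held in fewer than 6 libraries for each of them. Shmt1 was above Aldh1l2 in 5 of 6 libraries, by 0.41 ± 0.35 on the log2 scale (mean ± SD, n = 6), and Aldh1l2 above Mthfd2 in 5 of 6, by 0.70 ± 0.53. The mean difference was smaller than its SD for Mthfd2 over Aldh1l1 (0.24 ± 0.54), Aldh1l1 over Mthfd2l (-0.0083 ± 0.38) and Mthfs over Mthfd1l (0.19 ± 0.37). The place of Mthfd2l depended on the gene length used, since with the longest transcript it was above Aldh1l1 by 0.57 ± 0.38 (mean ± SD, n = 6), in 5 of 6 libraries. In cmGch1 KO libraries the order was the same but for Mthfd2, which at 3.73 ± 1.01 cpm per kilobase (SD, n = 6) moved from the fifth to the third place, above Shmt1 at 2.80 ± 0.486 in 4 of 6 libraries and above Aldh1l2 at 1.72 ± 0.361.

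Whether the other enzymes varied with Mthfd2 between animals was examined after subtraction of each genotype mean, over 12 libraries and 8 relations. Pearson's r lay between -0.25 for Aldh1l2 and 0.18 for Mthfd1, and Spearman's rho between -0.34 for Mthfd2l and 0.30 for Mthfd1. No relation passed the test (permutation within genotype, two-sided, unadjusted p from 0.417 to 0.938 for r and from 0.285 to 1 for rho; Benjamini-Hochberg adjusted p 0.938 for each r and from 0.84 to 1 for rho). Without the pair of libraries farthest from the median of Mthfd2, cmGch1 KO replicate 6 and WT replicate 2, r ranged from -0.56 for Shmt1 to 0.39 for Mthfd1 and Shmt2. Among the 11224 other tested genes, those with a pattern most like Mthfd2 after the same subtraction were Adck5 (r = 0.86), Chp2 (0.82), Pex11g (0.82), Pars2 (0.80) and Tpm2 (0.79). They are given as a description, since they were picked as the highest of 11224 values of r. None of them was called between the genotypes, with log2 fold changes from -0.14 for Pex11g to 0.06 for Adck5. Ranked by the same r, the 6 other tested enzymes stood between place 3147 and place 8834.

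The genes around the folate cycle were read from the fit over all genes, with a list of 36 genes of which 27 passed the filter. At an FDR under 0.05, 0 of the 27 were called higher and 0 lower by the quasi-likelihood test of edgeR (Benjamini-Hochberg), and DESeq2 also called 0. At an unadjusted p under 0.05, 2 were higher and 0 lower, where 11.5% of all tested genes passed in either direction. Of the 27 log2 fold changes 11 were above 0 and 16 below, with a median of -0.03 and a range from -0.24 to 0.59.

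**Figure D5:**
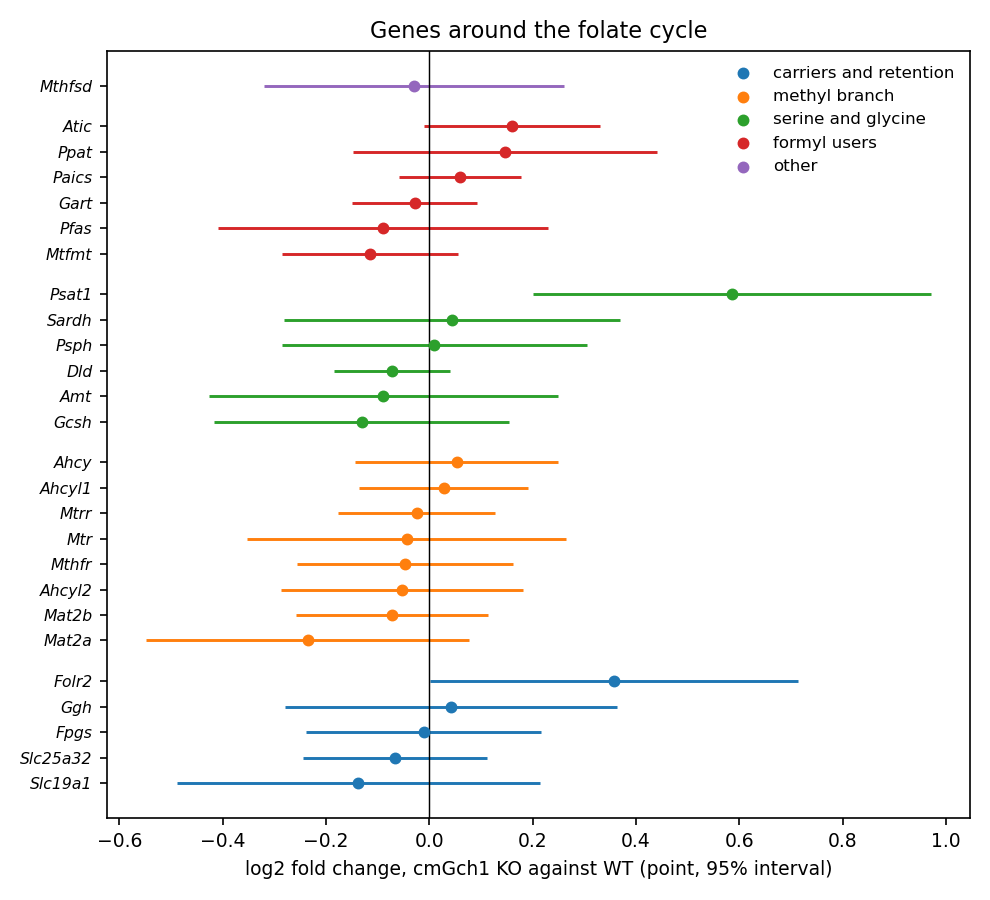
Log2 fold change in cmGch1 KO against WT hearts (point) with its 95% interval (line) for tested genes around the folate cycle, coloured by group. Psat1 at 0.59 and Folr2 at 0.36 are the highest and Mat2a at -0.24 is the lowest.

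The gene with the highest value was Psat1, an enzyme of serine synthesis, the source of the carbon that Shmt2 moves. It had 2.22, 2.88 and 3.30 cpm as its lowest, median and highest values in WT and 2.82, 4.54 and 5.55 cpm in cmGch1 KO libraries, of which 4 lay above all WT libraries. The log2 fold change was 0.59 (standard error 0.18; edgeR quasi-likelihood test, adjusted p = 0.169). Psat1 was over 3 cpm in exactly 6 libraries, so that it passed the filter largely through the genotype in which it was higher, and 8 of 24 alternatives did not test it. In the 16 others the adjusted p lay between 0.0369, with the surrogate variable as a covariate, and 0.446. The remaining enzymes of serine synthesis are named here after their values were seen. Psph, the last of them, was at 5.23 ± 0.643 cpm over the WT libraries and 5.28 ± 1.06 cpm over the cmGch1 KO libraries (mean ± SD, n = 6 each), with a log2 fold change of 0.01 (adjusted p = 0.993). Phgdh, the first of them, was under the expression minimum: it was at 1.24 ± 0.267 cpm over the WT libraries and 2.34 ± 0.731 cpm over the cmGch1 KO libraries (mean ± SD, n = 6 each), from 17 to 95 counts, and 5 cmGch1 KO libraries lay above all WT libraries. In the fit without the filter its log2 fold change was 0.88 with a standard error of 0.23 (adjusted p = 0.141). Of the 6 tested genes of the serine and glycine group, 3 were above 0 and 3 below, with a median log2 fold change of -0.03.

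Of the carriers of folate, Folr2, a folate receptor known from macrophages, was at 7.59 ± 0.988 cpm over the WT libraries and 9.78 ± 2.74 cpm over the cmGch1 KO libraries (mean ± SD, n = 6 each), with a log2 fold change of 0.36 (standard error 0.17; edgeR quasi-likelihood test, adjusted p = 0.433). The summed macrophage markers given above also had a higher range in cmGch1 KO than in WT libraries, with overlap and with 0 of 4 called. Whether Folr2 varied with them between libraries, and their part in its value, was not tested. Slc19a1, the carrier of reduced folate, had a log2 fold change of -0.14 (adjusted p = 0.851 from the same test). Of the methyl branch, which makes the methyl donor S-adenosylmethionine, Mat2a and Mat2b, the catalytic and regulatory subunits of its synthase, had log2 fold changes of -0.24 and -0.07 (adjusted p = 0.609 and 0.852). The enzymes that use formyl groups included Atic, of purine synthesis, at 0.16 (adjusted p = 0.478) and Mtfmt, which formylates the mitochondrial initiator tRNA, at -0.12 (adjusted p = 0.673). Dld, a subunit of the glycine cleavage system and of other mitochondrial dehydrogenases, was at -0.07 (adjusted p = 0.690), and Mthfsd at -0.03 (adjusted p = 0.974).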

How the data were processed

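RNA-seq of 12 left ventricle libraries was analysed. Per the paper's methods, the authors made stranded paired-end libraries with dUTP and generated counts with HISAT2, Picard and featureCounts, and the submitters' processing notes name GRCm38, HISAT2 and SAMtools. They deposited raw counts per Ensembl gene and a second table of normalised values on a log2 scale, whose tool is not given in the sources used here. GENCODE M21 named 26545 of the 26921 identifiers (98.6%). From the counts, genes over 3 cpm in 6 or more libraries were fitted by edgeR 4.0.16 (R 4.3.3; TMM factors, quasi-likelihood F test for genotype) and called at a Benjamini-Hochberg FDR under 0.05; the library minimum is not given by the authors. Standard errors were derived from the quasi-likelihood F. The script was tested on simulated data. Log2 cpm used a prior count of 2, and levels per kilobase used the union of exons. Counting precision is limited by depth, from 19921398 to 37917806 counts. P-values of the genotype fit judge a difference against the spread between these libraries. No library was a copy: counts of the 30 pairs within a genotype differed by a chi-square of at least 12.5 per degree of freedom.

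Alternatives used DESeq2 1.42.0, limma 3.58.1, sva 3.50.0, other filters and scalings, covariates, the replicate number as a block and libraries left out. Replicate numbers came from the sample titles, which do not say whether the numbers pair the samples. The main fit did not pair samples by them. The enzymes and gene lists were chosen with earlier results of these data known. The genes named are the 9 enzymes, Gch1, genes of the folate list with an FDR under 0.05 or, for a group with none, up to 2 with the smallest p, the 5 genes most like Mthfd2 within genotype, Xist and 4 Y-linked genes; Phgdh, Psph, Mthfsl and the markers of smooth muscle are exceptions. Markers of adipocytes (2.02 to 9.30 cpm summed in WT, 0.444 to 8.60 in cmGch1 KO libraries, 0 of 4 tested), atrial, endothelial and fibroblast cells (0 called) and cycling cells (1 of 6 tested, 0 called) were also read. The tested gene of 1 group of the folate list is counted but not reported here.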

Additional observations from a re-analysis of the deposited data

Results flagged for a closer look

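Shmt1 in WT replicate 5 was at 10.1 cpm, while the nearest of the other WT libraries was at 8.6 cpm, a gap of 0.694 of the whole WT range and above the limit of 0.625 for 6 libraries. Of 24 groups of 6 values examined, chance would put about 1 in 20 past this limit. Without this library the log2 fold change of Shmt1 was 0.40. The cause was not tested.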

How the results depend on the processing

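The log2 fold change of Mthfd2 ranged from 1.18 to 1.98 over 23 alternatives. The 1.18 came from the authors' normalised values, which are on another scale. A filter of cpm over 3 in every library removed the gene, which left 0 enzymes called and a cytosolic median of 0.18. None of the other enzymes was called where it was tested, which was in 24 alternatives for 5 of them, 23 for Aldh1l1 and 2 for Mthfd1l and Mthfs. Leaving Mthfd2 out turned the mitochondrial minus cytosolic difference to -0.078, and single libraries left out gave 0.25 to 0.35. With the longest transcript in place of all exons, 5 of 8 neighbour pairs kept 1 order in all WT libraries, and Aldh1l1 and Mthfd2l changed places; leaving out a WT library gave 3 to 4. Over all genes, 76 were higher and 50 lower in the edgeR quasi-likelihood fit used for the values above. The paper gives larger numbers of genes in both directions. Scaling by library size alone gave 116 higher. DESeq2 gave 218 higher and 155 lower, the likelihood ratio test 145 and 80, the surrogate variable 302 and 334, the sex-linked covariate 40 and 24, and leaving out cmGch1 KO replicates 2 and 3 gave 16 and 18. Leaving out single libraries gave 44 to 111 higher and 28 to 96 lower genes. The replicate block gave 76 lower genes and 1 wider folate gene higher, Psat1 (adjusted p = 0.0457), as did the surrogate variable, and changed no other enzyme's call; correlations of same-numbered samples lay between -0.13 and 0.68, and 2 of 6 samples matched their own number best. The r of Mthfd2 with Shmt1 was 0.39 without cmGch1 KO replicates 2 and 3. The causes were not tested. Enzymes under 3 cpm are limited by depth.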
